A study of Mus musculus with 6 samples.

Results

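A set of 10 genes that mark resident macrophages was followed in RNA-seq of whole dorsal root ganglia, which hold the cell bodies of sensory neurons next to the spinal cord. The genes were Csf1r, Cx3cr1, Adgre1, Mrc1, Cd163, Cd68, Aif1, C1qa, C1qb and C1qc, chosen by name. All 10 had a row among the 54532 gene rows of the deposited table, and all 10 passed the filter on low values, which kept 18410 genes. The conditional knockout (Hdac2 cKO, genotype Adv-Cre+/hdac2-flop++, 3 libraries) had Cre recombinase driven by the promoter of Advillin, a gene of primary sensory neurons, and floxed alleles of the histone deacetylase gene Hdac2. The WT libraries (3) came from littermates without Cre whose labelled genotype was hdac2-flop++, so both groups carried the floxed alleles and no group carried Cre alone. All mice were C57BL/6 at 8 weeks of age. Cre was thus directed to neurons, and macrophages were part of the surrounding tissue. Whether a library held ganglia of 1 mouse or of several was not given in the sources used here, and p-values therefore measure only how far these libraries differ among themselves.

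Macrophages of sensory ganglia lie between the neurons and their satellite glia and along the blood vessels. They depend on signalling through the CSF1 receptor, for which colony stimulating factor 1 and interleukin 34 are the ligands. They take up debris through scavenger and lectin receptors and produce C1q, the recognition molecule of the classical complement pathway. In models of nerve injury they multiply around neuron cell bodies and have been tied to pain hypersensitivity. In RNA of whole tissue, fewer macrophages and less RNA per macrophage cannot be told apart.

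Reads assigned to genes ranged from 27787407 to 42070531 in Hdac2 cKO libraries and from 18943595 to 31338593 in WT libraries. Levels are given as normalised read counts, which are read counts over the size factor of the library. Differences between groups are log2 fold changes of Hdac2 cKO over WT, taken on log2 (value + 1), a scale that understates changes of low genes. Hdac2 stood at 499.1, 371.5 and 535.0 in Hdac2 cKO 1, 2 and 3, against 2816, 1715 and 3498 in WT 1, 2 and 3, in keeping with the labels. WT 3 stood apart from the other libraries: 449 genes were at 0 in it while at 10 or more in all of the other 5, against 1 to 9 such genes for each other library. Reads of the Y-linked genes Ddx3y, Uty, Kdm5d and Eif2s3y summed to 3993 in Hdac2 cKO 2, 3649 in WT 2 and 5698 in WT 3 and to at most 7.06 in the others, so sex was not balanced between the groups.

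None of the 10 macrophage genes passed limma's test between Hdac2 cKO and WT ganglia after adjustment over all genes, whether or not the libraries were paired by number. Values of the groups overlapped for all 10, while they did not overlap for 8.54% of the genes tested. By fold change 7 were higher in Hdac2 cKO and 3 lower, where 55.3% of all tested genes were higher. The median log2 fold change of the 10 was 0.37, beside 0.06 over all genes tested. In limma's test without pairing 0 of 10 passed (adjusted p from 0.927 to 0.978), in a comparison that called 0.0% of genes. Hdac2 itself, at a log2 fold change of -2.47, did not pass either (limma adjusted p = 0.927). A gene that did not pass in that fit is therefore not shown to be unchanged. None of the 10 had an unadjusted p under 0.05 in that fit, which 341 genes (1.85%) had. The labels do not pair the libraries, and a pairing by number was read from these same values. With the libraries so paired, Csf1r, Cd68, Mrc1 and C1qb were higher in Hdac2 cKO in 3 of 3 pairs, as were 18.2% of all tested genes. Aif1 was lower in 3 of 3, as were 14.6%. In limma with this replicate block Mrc1 alone of the 10 had an unadjusted p under 0.05 (0.011), beside 5.94% of all tested genes, and 0 of the 10 passed (limma adjusted p from 0.674 to 0.942). edgeR and DESeq2, run on 5 libraries without Hdac2 cKO 1, called 0 genes (0.0%) and 7 genes (0.038%), and 0 of the 10. Without WT 3 the median of the 10 was -0.15, without WT 1 it was 0.73, and without both libraries numbered 3 it was 0.34. On the 5 libraries without Hdac2 cKO 1 it was 0.05 in limma and -0.10 in both edgeR and DESeq2.

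**Figure D1:**
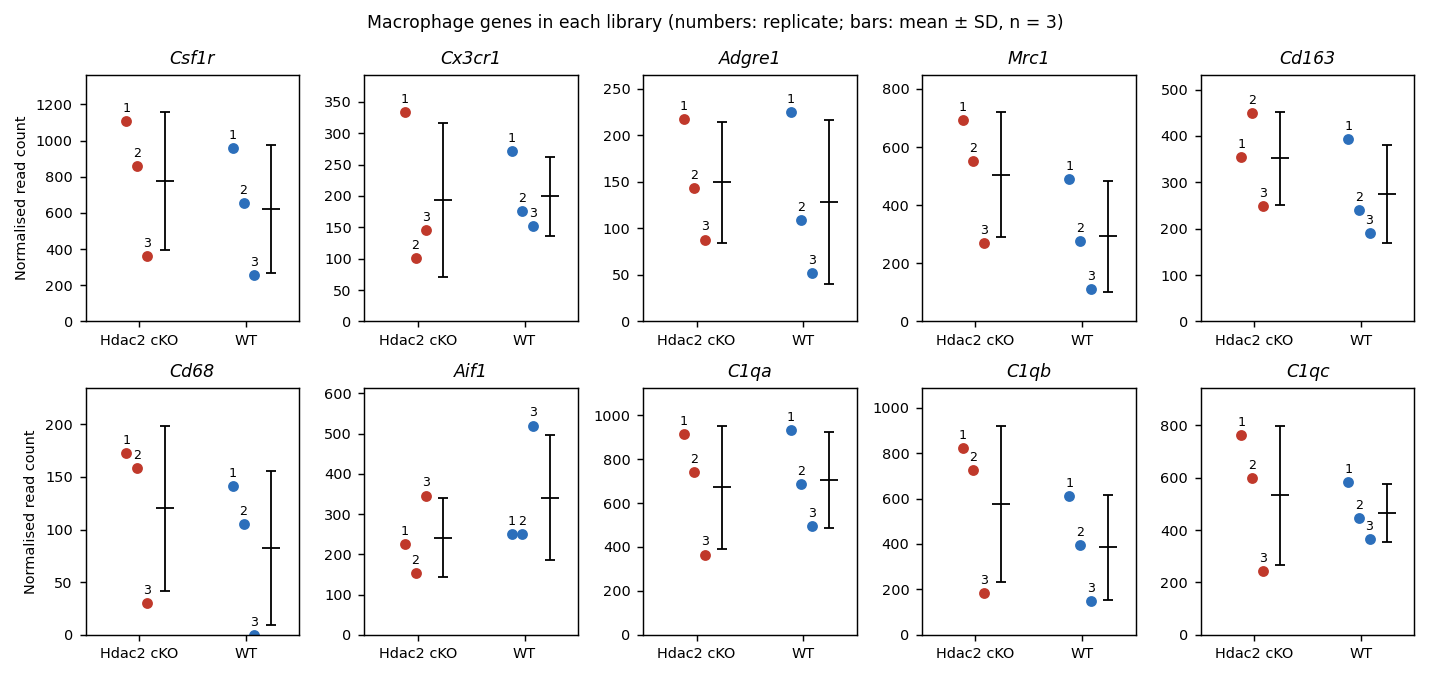
Normalised read counts (y axes, from 0) of the 10 macrophage genes in the 3 Hdac2 cKO libraries (red) and the 3 WT libraries (blue), each point marked with its replicate number, with mean ± SD (SD, n = 3) to the right. The groups overlap in every panel, replicate 3 of both groups is low in most panels and high for Aif1, and Cd68 is at 0 in WT 3.

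Csf1r (ENSMUSG00000024621, mm10 chromosome 18, 61100598 to 61132149, plus strand), the tyrosine kinase receptor that macrophages need for survival, stood at 1110, 858.0 and 363.7 normalised read counts in Hdac2 cKO 1, 2 and 3, against 956.5, 653.7 and 254.5 in WT 1, 2 and 3. Its log2 fold change was 0.37 (SE 0.59), and the order of the replicates was the same in both groups, with number 3 lowest. Exons of Csf1r share 873 of their 5774 bases with Hmgxb3 on the opposite strand, and as the strand setting of the counting was not given in the sources used here, some of these reads may belong to either gene. Hmgxb3 stood at 839.6, 884.6 and 414.0 in Hdac2 cKO 1, 2 and 3, against 860.3, 717.7 and 297.4 in WT 1, 2 and 3, so it too was lowest in number 3 of each group. Adgre1 (ENSMUSG00000004730, chromosome 17, 57358691 to 57483527), which encodes the macrophage antigen F4/80, stood at 217.2, 143.5 and 88.1 in Hdac2 cKO 1, 2 and 3, against 225.0, 108.7 and 52.1 in WT 1, 2 and 3. Its log2 fold change was 0.36 (SE 0.60), and it followed Csf1r closely, at 0.166 to 0.242 of the Csf1r value in all 6 libraries. Without WT 3 the log2 fold change was -0.17 for Csf1r and -0.16 for Adgre1.

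Cx3cr1 (ENSMUSG00000052336, chromosome 9, 119901616 to 120069879), the receptor for the neuronal chemokine fractalkine, departed from that order. Its values were 333.4, 101.2 and 145.5 normalised read counts in Hdac2 cKO 1, 2 and 3, against 270.9, 175.7 and 152.3 in WT 1, 2 and 3. Hdac2 cKO 2, which was high for most of the other genes, was the lowest library for Cx3cr1. Its log2 fold change was -0.19 (SE 0.49), and was 0.19 without Hdac2 cKO 2 and 0.06 without WT 1.

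Of the endocytic receptors, Mrc1 had the smallest p of the 10. Mrc1 (ENSMUSG00000026712, chromosome 2, 14229392 to 14332057), the mannose receptor CD206 of tissue macrophages, stood at 693.1, 551.4 and 270.7 normalised read counts in Hdac2 cKO 1, 2 and 3, against 491.5, 278.4 and 110.4 in WT 1, 2 and 3. Each Hdac2 cKO library was thus above the WT library of the same number, while Hdac2 cKO 3 lay below WT 1 and WT 2. The means were 505 ± 215 in Hdac2 cKO and 293 ± 191 in WT (SD, n = 3 each). The log2 fold change was 0.92 (SE 0.59), with a 95% confidence interval from -0.47 to 2.31, an unadjusted limma p of 0.163 and limma adjusted p = 0.927. With the replicate block, a pairing that the labels do not give, the unadjusted limma p was 0.011 and limma adjusted p = 0.674. The interval in that fit was 0.29 to 1.56. The log2 fold change was 0.34 without WT 3. Cd163 (ENSMUSG00000008845, chromosome 6, 124304656 to 124330527), the scavenger receptor for haemoglobin bound to haptoglobin, stood at 355.6, 449.2 and 249.7 in Hdac2 cKO 1, 2 and 3, against 393.5, 239.7 and 191.1 in WT 1, 2 and 3. Its log2 fold change was 0.38 (SE 0.37), and of the 10 genes it spanned the narrowest range, its highest library at 2.35 times its lowest.

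Cd68 and Aif1 encode proteins inside the cell and lay farthest from the rest. Cd68 (ENSMUSG00000018774, chromosome 11, 69664213 to 69666153), a lysosomal glycoprotein, stood at 172.8, 158.2 and 30.1 normalised read counts in Hdac2 cKO 1, 2 and 3, against 141.2, 105.7 and 0 in WT 1, 2 and 3. No read of Cd68 was counted in WT 3, where 3 reads would be worth 3.07. A count of 0 allows up to 3 reads only if reads are counted independently of each other, which was not tested. Of the genes with 1 to 20 reads in WT 3, 60.2% had an even count. Its log2 fold change of 1.94 (SE 1.86) rested on that library: it was -0.37 without WT 3, and with pseudocounts of 0.5 and 5 in place of 1 it was 2.27 and 1.22. The 449 genes missing from WT 3 include Cd68, and why they are at 0 was not tested. Aif1 (ENSMUSG00000024397, chromosome 17, 35170991 to 35176068), which encodes the actin-binding protein IBA1, ran the other way. It stood at 226.3, 152.3 and 346.2 in Hdac2 cKO 1, 2 and 3, against 249.7, 251.6 and 520.2 in WT 1, 2 and 3. The libraries numbered 3 were the highest of their groups for Aif1 and the lowest of their groups for Csf1r, so the ratio of Aif1 to Csf1r was 0.204, 0.178 and 0.952 in Hdac2 cKO 1, 2 and 3, against 0.261, 0.385 and 2.04 in WT 1, 2 and 3. The log2 fold change of Aif1 was -0.48 (SE 0.43). Of its coding neighbours, Prrc2a had 4230 in WT 3, the lowest of the 6 libraries, and Lst1 had 55.2, within the range of the others.

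The 3 chains of C1q are encoded side by side on chromosome 4, minus strand, and assemble into 1 protein. C1qa (ENSMUSG00000036887, 136895917 to 136898803) stood at 914.4, 740.1 and 365.8 normalised read counts in Hdac2 cKO 1, 2 and 3, against 935.3, 684.9 and 497.8 in WT 1, 2 and 3. C1qb (ENSMUSG00000036905, 136880129 to 136886187) stood at 820.4, 727.3 and 181.8 in Hdac2 cKO 1, 2 and 3, against 609.7, 393.1 and 150.2 in WT 1, 2 and 3. C1qc (ENSMUSG00000036896, 136889804 to 136893065) stood at 761.8, 597.6 and 242.0 in Hdac2 cKO 1, 2 and 3, against 583.2, 445.2 and 366.9 in WT 1, 2 and 3. All 3 chains had number 3 as the lowest library of each group. The log2 fold changes were -0.12 (SE 0.40) for C1qa, 0.53 (SE 0.71) for C1qb and 0.07 (SE 0.45) for C1qc, each with overlapping groups.

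The chains did not keep 1 ratio. C1qa stood to C1qc at 1.20, 1.24 and 1.51 in Hdac2 cKO 1, 2 and 3, against 1.60, 1.54 and 1.36 in WT 1, 2 and 3, the highest at 1.34 times the lowest. C1qa stood to C1qb at 1.11, 1.02 and 2.01 in Hdac2 cKO 1, 2 and 3, against 1.53, 1.74 and 3.31 in WT 1, 2 and 3, the highest at 3.26 times the lowest. By normalised read count C1qb was the lowest of the 3 chains in Hdac2 cKO 3, WT 2 and WT 3. C1qc was the lowest in Hdac2 cKO 1, Hdac2 cKO 2 and WT 1. These counts are not divided by exon length, which is 1088 bases for C1qb and 1931 for C1qc. The C1qb values lay at 0.739, 0.848 and 0.50 of the Csf1r value in Hdac2 cKO 1, 2 and 3, against 0.637, 0.601 and 0.590 in WT 1, 2 and 3.

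Set against Csf1r within each library, 1 of the 9 other genes separated the groups. The ratio of Mrc1 to Csf1r was 0.624, 0.643 and 0.744 in Hdac2 cKO 1, 2 and 3, against 0.514, 0.426 and 0.434 in WT 1, 2 and 3. The means were 0.670 ± 0.065 in Hdac2 cKO and 0.458 ± 0.049 in WT (SD, n = 3 each), with p = 0.1 by an exact permutation test (two-sided), which is the smallest p for groups of 3. The other 8 ratios overlapped, with exact p from 0.2 to 1.0. Among all tested genes 2.06% had a ratio to Csf1r without overlap. These ratios were picked with the values in view, and the p of 0.1 is not adjusted over the 9.

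**Figure D2:**
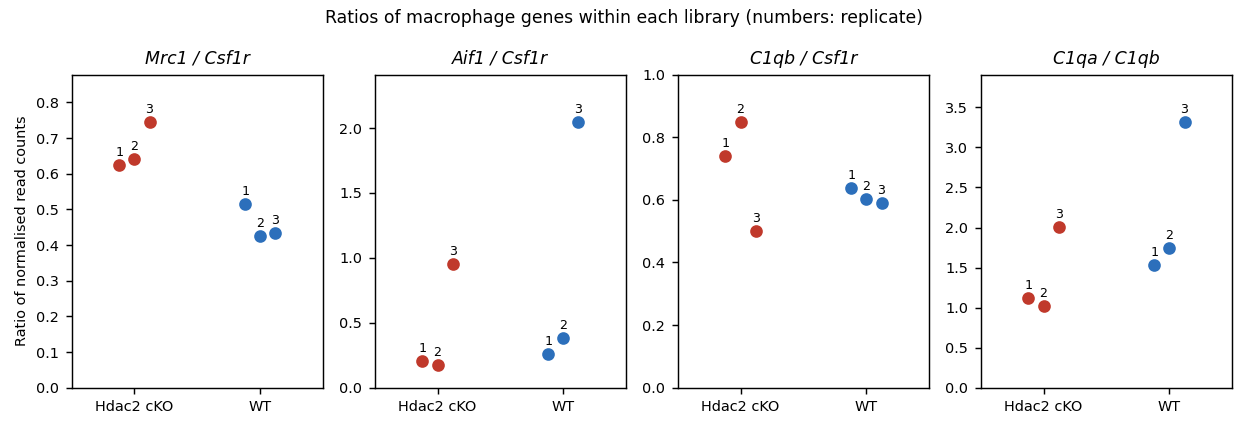
Ratios of normalised read counts within each library (y axes, from 0) for 4 pairs of macrophage genes, with the 3 Hdac2 cKO libraries in red and the 3 WT libraries in blue, marked by replicate number. For Mrc1 over Csf1r the Hdac2 cKO libraries lie at 0.624 to 0.744 and the WT libraries at 0.426 to 0.514; the other 3 ratios overlap, and Aif1 over Csf1r reaches 2.04 in WT 3.

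**Figure D3:**
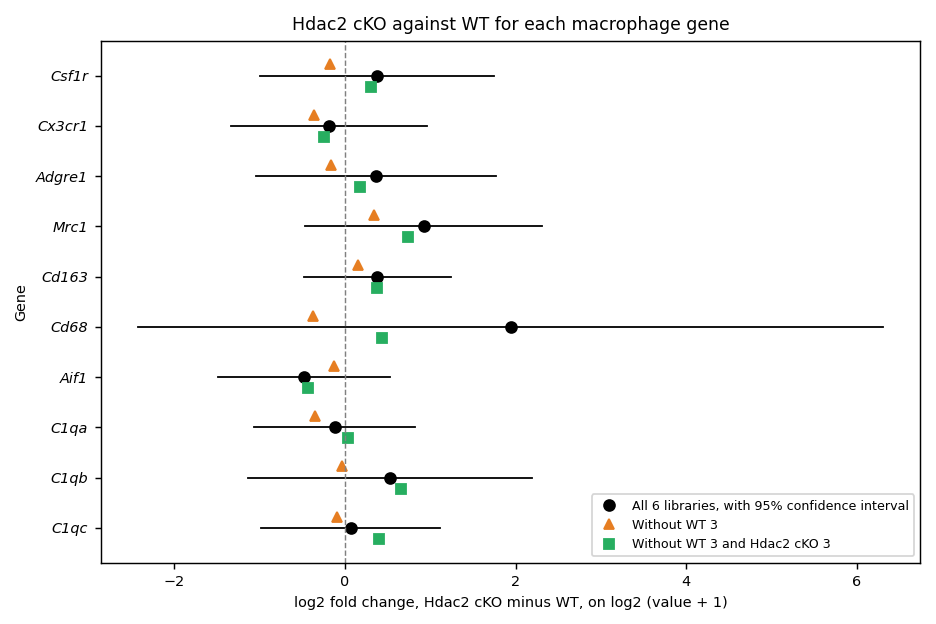
Log2 fold change, Hdac2 cKO minus WT (x axis, log2 (value + 1) scale), of each macrophage gene from all 6 libraries with its 95% confidence interval from the fit without pairing (black), without WT 3 (orange) and without both WT 3 and Hdac2 cKO 3 (green). Every interval spans 0, and the value of Cd68 is 1.94 with all libraries and -0.37 without WT 3.

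Across libraries of the same group most of the 10 genes shared an order. Aif1 departed from it in both groups, and Cx3cr1 and Cd163 in Hdac2 cKO. Relative to its own mean over the 6 libraries, the median of the 10 genes lay at 0.83, 0.41 and -0.56 (log2) in Hdac2 cKO 1, 2 and 3, against 0.55, -0.06 and -0.94 in WT 1, 2 and 3. Their summed level was 5605, 4479 and 2284 normalised read counts in Hdac2 cKO 1, 2 and 3, against 4857, 3337 and 2296 in WT 1, 2 and 3. Number 3 was the lowest library of both groups in this sum. For 7 of the 10 genes both libraries numbered 3 lay below all of the other 4, an order that 22.3% of all tested genes showed. For Aif1 both lay above, as for 18.2% of all tested genes, and for Cx3cr1 and Cd163 the order was mixed. WT 3 was the lowest library for 6 of the 10 genes, beside 40.4% of all tested genes.

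**Figure D4:**
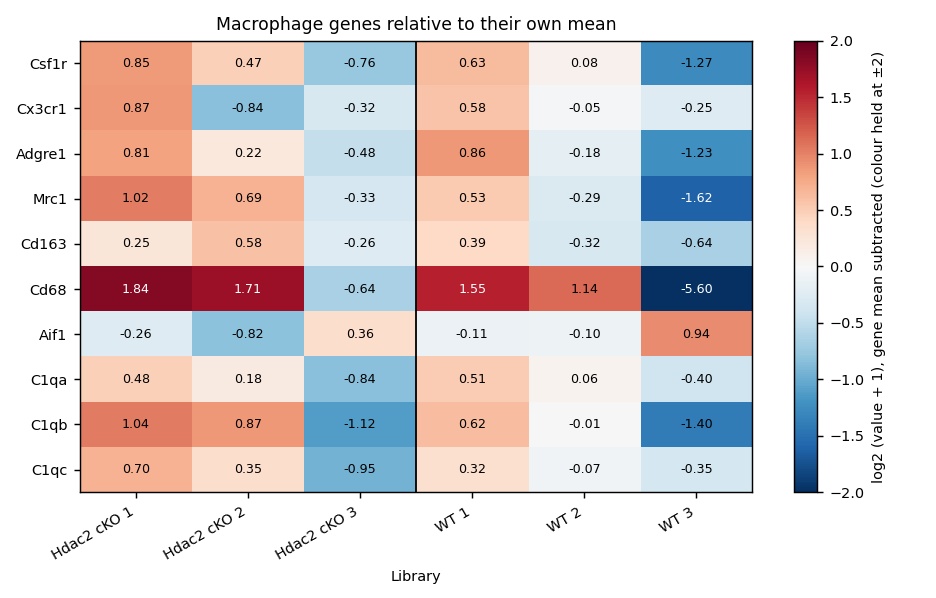
Level of each macrophage gene in each library as log2 (value + 1) with the mean of the gene over the 6 libraries subtracted; Hdac2 cKO libraries are left of the line and WT libraries right of it, and colour is held at ±2. Hdac2 cKO 1 and WT 1 are above the mean for 9 of the 10 genes, Hdac2 cKO 3 and WT 3 for 1 of the 10, which is Aif1.

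Per kilobase of exon, the C1q chains were on average the most abundant of the 10. Over the 6 libraries C1qa averaged 663 ± 217 normalised read counts per kilobase, C1qb 442 ± 260, C1qc 259 ± 96.1 and Aif1 190 ± 83.7 (SD, n = 6). Csf1r followed at 121 ± 58.6, Cd68 at 80.6 ± 56.6, Mrc1 at 62.7 ± 33.9, Cd163 at 57.3 ± 18.5, Cx3cr1 at 43.6 ± 19.4 and Adgre1 at 43.0 ± 21.7 (SD, n = 6). On this scale C1qa lay above C1qb, and Csf1r above Cd68, in 6 of 6 libraries. The other neighbours in this order changed places in at least 1 library. C1qb lay above C1qc, and Cd163 above Cx3cr1, in 5 of 6. C1qc lay above Aif1, Cd68 above Mrc1, and Cx3cr1 above Adgre1, in 4 of 6. Aif1 lay above Csf1r, and Mrc1 above Cd163, in 3 of 6. In WT 3 Aif1 stood at 340 per kilobase, above C1qb at 138.

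Windows of 250 bases before the RefSeq start of transcription are shown for 4 genes. Mrc1, C1qb and C1qc shared the order of the libraries within each group, while Aif1 did not. Cd68 shared that order too, and its window, with 1 match to the motif below, is not shown. Those of Cx3cr1 and Cd163, which departed from the order in Hdac2 cKO, are not shown either. Sequences were those of RefSeq on GRCm38.p6, the assembly of mm10, which held a window for 7 of the 10 genes. Capitals mark GAGGAA on either strand (TTCCTC on the printed one), the core of the purine-rich element bound by PU.1, a transcription factor that macrophages need. Each runs 5′ to 3′ on the strand of its gene.
Mrc1 (chr2:14229164-14229413, plus strand): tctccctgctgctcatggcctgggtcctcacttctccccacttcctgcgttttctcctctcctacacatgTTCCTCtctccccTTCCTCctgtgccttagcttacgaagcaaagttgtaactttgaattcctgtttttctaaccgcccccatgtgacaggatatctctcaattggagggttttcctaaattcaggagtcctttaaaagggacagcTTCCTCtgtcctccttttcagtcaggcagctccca
C1qb (chr4:136886201-136886450, minus strand): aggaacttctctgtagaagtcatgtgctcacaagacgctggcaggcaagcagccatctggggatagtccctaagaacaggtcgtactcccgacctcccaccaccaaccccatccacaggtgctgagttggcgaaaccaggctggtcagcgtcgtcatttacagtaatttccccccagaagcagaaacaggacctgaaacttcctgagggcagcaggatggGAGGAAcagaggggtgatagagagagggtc
C1qc (chr4:136892915-136893164, minus strand): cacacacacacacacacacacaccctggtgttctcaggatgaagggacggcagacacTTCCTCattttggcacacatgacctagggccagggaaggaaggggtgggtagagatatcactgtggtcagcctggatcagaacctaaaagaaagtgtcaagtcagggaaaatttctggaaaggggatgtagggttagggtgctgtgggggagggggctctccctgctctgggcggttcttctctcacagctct
Aif1 (chr17:35176053-35176302, minus strand): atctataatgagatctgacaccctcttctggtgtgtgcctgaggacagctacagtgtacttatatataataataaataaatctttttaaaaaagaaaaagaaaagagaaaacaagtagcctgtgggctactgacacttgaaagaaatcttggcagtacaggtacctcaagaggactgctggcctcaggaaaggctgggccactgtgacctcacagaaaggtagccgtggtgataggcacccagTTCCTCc
The Mrc1 window held 3 matches and the C1qb, C1qc and Aif1 windows 1 each. A match was present in 5 of the 7 windows, those of Cd163 and Cx3cr1 having none, and in 23.3% of all 32851 windows of that length. 

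Ligands and partners of the macrophage receptors overlapped between groups as well. Of 6 genes, 3 were higher and 3 lower by fold change, 0 passed limma's test, and the median log2 fold change was 0.02. Csf1, the growth factor ligand of the CSF1 receptor, stood at 708.3, 532.7 and 403.6 in Hdac2 cKO 1, 2 and 3, against 598.2, 525.6 and 523.3 in WT 1, 2 and 3. Il34, its other ligand, stood at 820.4, 819.7 and 646.9 in Hdac2 cKO 1, 2 and 3, against 795.9, 996.1 and 1003 in WT 1, 2 and 3. Cx3cl1, which encodes fractalkine, had a log2 fold change of 0.14 (SE 0.42), Tgfb1, the growth factor TGF-beta 1, of 0.08 (SE 0.44), and Tnfsf12, the cytokine TWEAK, of -0.16 (SE 0.29). Hp, haptoglobin, had one of 0.58 (SE 1.13) and stood at 305.1, 485.5 and 44.8 in Hdac2 cKO 1, 2 and 3, against 379.4, 168.3 and 30.7 in WT 1, 2 and 3.

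Of 30 further macrophage genes, 29 were tested, of which 21 were higher and 8 lower by fold change, where 55.3% of all tested genes were higher. The median log2 fold change was 0.46, and 0 passed limma's test over all genes. Relative to the mean of each gene, the median over the 29 was lowest in WT 3, at -1.06 (log2). For these genes no median fold change without WT 3 was taken. Mertk, a receptor tyrosine kinase for the uptake of dying cells, had the smallest p among them. It stood at 675.9, 1007 and 1093 in Hdac2 cKO 1, 2 and 3, against 640.6, 461.6 and 383.3 in WT 1, 2 and 3, without overlap, with a log2 fold change of 0.90 (SE 0.29) and limma adjusted p = 0.927. F13a1, coagulation factor XIII A of tissue macrophages, differed by 0.65 (log2, SE 0.42) and Itgam, the integrin CD11b, by 1.11 (SE 0.85). Mertk was the only one of the 29 (3.45%) whose groups did not overlap, beside 8.54% of all genes tested. In contrast to Csf1r, Mertk was highest in Hdac2 cKO 3 among the 6 libraries.

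Complement genes beside C1q had 11 of 14 tested members higher and 3 lower by fold change, where 55.3% of all tested genes were higher. Their median log2 fold change was 0.47, and 0 passed. Relative to the mean of each gene, their median was lowest in WT 3, at -0.66 (log2). C4b, the complement component that C1s cleaves, had a log2 fold change of 0.62 (SE 0.30). The membrane regulators Cd55 and Cd59a had 0.51 (SE 0.30) and 0.42 (SE 0.26), and of the 14 Cd55 alone (7.14%) did not overlap, beside 8.54% of all genes tested. Of 15 macrophage activation genes 10 were tested, 6 higher and 4 lower by fold change, with a median of 0.84, and 0 passed. Their median relative to the mean of each gene was also lowest in WT 3, at -0.83, and 4 of the 15 were at 0 there. Il1b, the cytokine interleukin 1 beta, stood at 49.5, 50.1 and 120.3 in Hdac2 cKO 1, 2 and 3, against 20.3, 28.3 and 34.8 in WT 1, 2 and 3, without overlap, with a log2 fold change of 1.27 (SE 0.55) and limma adjusted p = 0.927, and 1 of 10 without overlap stands beside 8.54% of all genes tested. Cxcl10, an interferon-induced chemokine, differed by 1.46 (log2, SE 0.80) and Tlr4, the receptor for bacterial lipopolysaccharide, by 1.09 (SE 0.71).

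Markers of blood cells varied with the macrophage genes across the libraries, over a wider range. The 9 granulocyte markers together reached 14182, 22666 and 228.7 normalised read counts in Hdac2 cKO 1, 2 and 3, against 24845, 1373 and 491.6 in WT 1, 2 and 3. The 7 erythroid markers reached 51225, 77527 and 1340 in Hdac2 cKO 1, 2 and 3, against 53291, 7113 and 2758 in WT 1, 2 and 3. The 5 monocyte markers reached 910.3, 938.6 and 65.0 in Hdac2 cKO 1, 2 and 3, against 1040, 153.4 and 117.5 in WT 1, 2 and 3. The libraries high in blood cell markers, Hdac2 cKO 1, Hdac2 cKO 2 and WT 1, were also the 3 with the highest summed level of the macrophage genes. Lymphocyte markers, 9 genes, summed to 109.8 to 684.1 in Hdac2 cKO and 126.7 to 650.3 in WT. In WT 3 the erythroid marker Alas2, the monocyte markers Plac8 and F10, the granulocyte marker Mpo and 4 of 9 lymphocyte markers were at 0. The part of blood cells in the macrophage values was not tested.

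Microglia markers, 6 genes that some tissue macrophages also use, summed to 599.1, 483.6 and 212.6 in Hdac2 cKO 1, 2 and 3, against 551.5, 433.3 and 176.8 in WT 1, 2 and 3. P2ry12, a purinergic receptor, was at 12.3 in WT 3 and P2ry13 at 0. Dendritic cell markers, 5 genes, had sums of 1290 to 1333 in Hdac2 cKO and 1026 to 1318 in WT. Most of each sum was Flt3 and Zbtb46, while Cd209a ran from 14.9 in WT 2 to 142.5 in Hdac2 cKO 2. Endothelial markers, 8 genes, summed to 5440 to 6227 in Hdac2 cKO and 5661 to 9032 in WT, and skeletal muscle markers, 8 genes, to 160.9 to 1125 in Hdac2 cKO and 2003 to 8576 in WT. Sensory neuron markers, 9 genes, summed to 362100 to 493555 in Hdac2 cKO and 350280 to 526220 in WT. Fibroblast markers, 6 genes, summed to 16548 to 30938 in Hdac2 cKO and 30895 to 34985 in WT, and markers of satellite glia, also 6 genes, to 102350 to 126463 in Hdac2 cKO and 126114 to 215979 in WT. Most of the satellite glia sum was Apoe, at 73200 in Hdac2 cKO 1 and 182369 in WT 3. Of these 6 satellite glia genes 3 were higher and 3 lower by fold change, with a median of -0.02. Markers of myelinating Schwann cells, 6 genes, summed to 124534 to 208790 in Hdac2 cKO and 228000 to 341373 in WT.

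**Figure D5:**
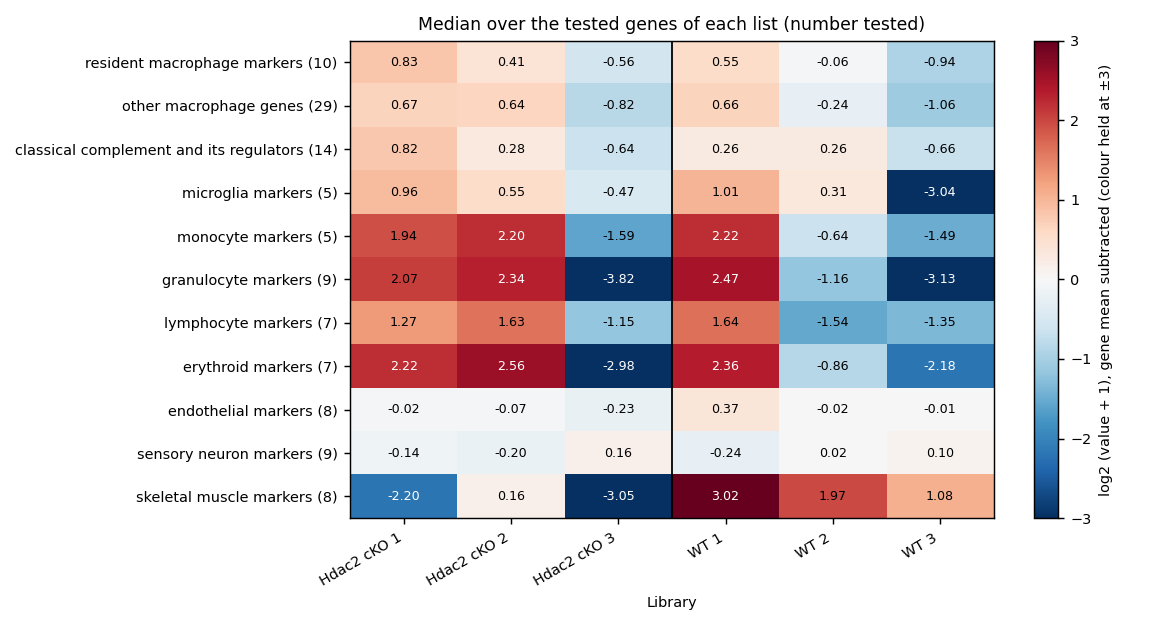
Median over the tested genes of each marker list (rows, with the number tested) in each library, as log2 (value + 1) with the mean of each gene over the 6 libraries subtracted; colour is held at ±3. Hdac2 cKO 3 and WT 3 lie below 0 for the macrophage, complement, microglia, monocyte, granulocyte, lymphocyte and erythroid lists. They also do for the endothelial list, at -0.23 in Hdac2 cKO 3 and -0.01 in WT 3. The resident macrophage median spans -0.94 to 0.83.

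Genes outside the list that came nearest to the mean profile of the 10 over the 6 libraries were not all known macrophage genes. By the root mean square difference of centred log2 values, they were Helz2 (0.075), a helicase, Ephb2 (0.077), an ephrin receptor, Tifab (0.087), Tti1 (0.090) and Gpam (0.097), an enzyme of glycerolipid synthesis. The mean profile includes Cd68, which had no read in WT 3 and lay at -5.60 there, where the median of the 10 was -0.94. A mean profile without Cd68 was not taken, so these neighbours depend in part on that 1 count. Ephb2 is also the coding neighbour of C1qb, 44141 bases away, and stood at 274.8, 179.9 and 107.7 in Hdac2 cKO 1, 2 and 3, against 214.4, 148.9 and 61.3 in WT 1, 2 and 3. Among the 10 themselves, Csf1r lay nearest to the mean of the other 9 (0.136) and Adgre1 next (0.171), while Cx3cr1 (0.691), Aif1 (1.30) and Cd68 (2.26) lay farthest. For every gene but Cd68, the mean of the others also includes Cd68 at that value in WT 3.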

How the data were processed

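Bulk RNA-seq of dorsal root ganglia was analysed in 6 libraries, grouped by sample titles. The submitters' processing notes name HISAT2, SAMtools, featureCounts, DESeq2 and the build mm10; versions, annotation and strand setting were not given in the sources used here. The deposited signal values were read counts that the authors had scaled by a factor for each library: in units of the smallest value of its column, 100% of values were whole numbers within 0.01. For Hdac2 cKO 1 that step lay close to 1, and count tests were run on the other 5 libraries only. Among genes with 1 to 20 reads, even counts made up 42.4% in WT 2 and 60.2% to 64.4% in the other libraries. Whether all libraries counted reads in the same unit was not tested, and depths and count tests take it that they did. Symbols, positions and exon lengths came from GENCODE release M21 (GRCm38), which matched 54495 identifiers.

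The macrophage genes, gene lists, fits and named-gene rule were chosen with earlier results of these data known. Named genes were the 10 macrophage genes, Hdac2, every ligand or partner, up to 3 genes by smallest p per other list as values only, and the 5 nearest profiles; Prrc2a, Lst1 and Hmgxb3 were named after their values were seen. The main test was limma 3.58.1 (R 4.3.3) with trend and robust options on log2 (value + 1), for genes that reached 10 in 3 or more libraries; p-values were two-sided, adjusted by Benjamini-Hochberg over all genes tested, with a threshold of 0.05. edgeR 4.0.16 and DESeq2 1.42.0 were run on recovered reads, and scipy 1.17.1 gave exact permutation tests. The limma fit without pairing was tested on simulated counts whose noise was independent between genes and libraries. The other fits were not tested that way.

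Whether replicate numbers pair the libraries was checked. Deviations from group means correlated across genes by 0.40, 0.15 and 0.42 between libraries numbered 1, 2 and 3. These were all over 0.1, and a fit paired by number is given beside the unpaired main fit. The labels give no pairing, so it was read from the same values that the paired fit tests. Hdac2 cKO 2 correlated more with WT 1 (0.34) than with WT 2, so pairing by number is not settled. No libraries of a group agreed within sampling noise (chi-square per gene at least 17.3).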

Additional observations from a re-analysis of the deposited data

How the results depend on the processing

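None of the 10 macrophage genes was called under any of the 18 alternatives run, and 0 genes were called over all genes except in 3 of them: limma with array weights called 567 genes, limma without both libraries numbered 3 called 5, and DESeq2 on 5 libraries called 7. The array weights were 4.17 for WT 2 and 0.101 for WT 3. With the replicate block, which pairs the libraries by number, limma called 0 genes and changed no call; 1094 genes had an unadjusted p under 0.05, against 341 without it. The smallest adjusted p of a macrophage gene in any alternative was 0.0583 (limma), for Mrc1 with array weights. The median log2 fold change of the 10 ranged from -0.15 to 0.73 when 1 library was left out, both when a WT library was; with a sex term it was 0.18, without both libraries numbered 3 it was 0.34, and in edgeR and DESeq2 on 5 libraries it was -0.100 and -0.098. Aif1, Mrc1 and Cd163 kept their direction in all 18. Leaving out 1 library, the log2 fold change ranged from -0.37 to 3.20 for Cd68, -0.17 to 0.85 for Csf1r, -0.67 to 0.19 for Cx3cr1, -0.16 to 0.89 for Adgre1, -0.39 to 0.27 for C1qa, -0.037 to 1.22 for C1qb and -0.26 to 0.56 for C1qc. C1qa turned to 0.11 with array weights and 0.039 without both libraries numbered 3. On the 5 libraries without Hdac2 cKO 1, an alternative added after seeing the data, edgeR and DESeq2 gave -0.037 and -0.034 for Csf1r, -0.16 and -0.16 for Adgre1 and -0.17 and -0.17 for C1qc. The cause of these turns was not tested. edgeR and DESeq2 on all 6 libraries were not run. Depth limits the low genes: Cd68 rested on 0 to 171 reads per library and Adgre1 on 51 to 255.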
